A study of Mus musculus with 8 samples.

Results

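Neurexins, neuroligins and LRRTMs were examined as 9 genes of 3 families, Nrxn2 and Nrxn3, Nlgn1, Nlgn2 and Nlgn3, and Lrrtm1, Lrrtm2, Lrrtm3 and Lrrtm4, named by family and not by measured values. Each matched 1 of the 32726 gene identifiers of the count table, and 9 of 9 passed the filter on low counts together with 16272 genes in all. Neurexins are receptors of the presynaptic membrane that reach across the synaptic cleft, and neuroligins and LRRTMs are their binding partners on the postsynaptic side. Neuroligin 1 is known mainly from excitatory synapses, neuroligin 2 from inhibitory synapses and neuroligin 3 from both, whereas LRRTMs are leucine-rich repeat proteins of excitatory synapses that bind neurexins and help to hold AMPA receptors. All of these proteins are able to induce synapse assembly when neurons contact cells that carry them, which makes them of interest in neurons whose axons are still forming branches and contacts.

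RNA sequencing compared cultured neurons of Nuak1 knockout (KO) mice with neurons of wild-type (WT) mice, to ask which transcripts depend on NUAK1, an AMPK-related kinase needed for cortical axon branching. The KO allele is constitutive, so every cell of the culture lacks the gene and not only the neurons, and the mice are kept on a C57Bl/6JRj background. Neurons were dissociated from E15.5 embryos and grown in serum-free medium for 5 days in vitro, with no further agent named in the labels. Each genotype had 4 libraries, numbered as in the labels from KO1 to KO4 and from WT1 to WT4, and the study's methods give 4 animals per condition. The tissue label of every library reads cortex or hippocampus, whereas the study describes cortical cultures. KO1, KO2 and KO3 carried the strain label BJ, WT1 carried BO, WT3 carried BQ, and KO4, WT2 and WT4 carried BK, without an explanation of these letters. As the cultures were sequenced in bulk, fewer neurons of one kind and less RNA per neuron cannot be told apart.

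Total counts ranged from 31247078 to 67155004 per library. Nuak1 was at 1.96 to 2.72 CPM (counts per 1000000 counts of the library) in KO and at 51.6 to 82.6 CPM in WT, so every library matched its genotype label. KO1 and WT1 stood apart from the other 6 libraries, at −27.6 and −28.4 on the first principal component against 0.0733 to 22.6, although they differ in genotype and in strain label. Lane A held KO1, WT1, KO4 and WT3, and lane B held KO2, KO3, WT2 and WT4. Markers of excitatory neurons summed to 4988 to 5778 CPM in KO against 5068 to 5561 CPM in WT, astrocyte markers to 978 to 1854 CPM and 1030 to 1578 CPM, and microglial markers to 8.35 to 59.9 CPM and 7.84 to 28.4 CPM, with the microglial marker Tmem119 at 3 counts or fewer in every library. Of the 9 tested microglial markers 8 were higher in KO, with a median log2 fold change of 1.33, and 0 passed the lower study threshold. Interneuron markers summed to 217 to 355 CPM in KO against 195 to 322 CPM in WT, and markers of progenitors and dividing cells to 394 to 487 CPM and 288 to 406 CPM. Markers of the oligodendrocyte lineage summed to 509 to 611 CPM and 486 to 592 CPM, and those of endothelial, mural and fibroblast cells to 18.2 to 38.5 CPM and 9.94 to 50.1 CPM. In the list of progenitors and dividing cells 4 of 11 tested markers were higher in KO at the study's lower threshold, defined below, against 2.16% of tested genes, and the part of these markers and of the microglial ones in the results below was not tested.

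In these neurons 7 of 9 members had a log2 fold change below 0 in KO against WT, 1 of them, Lrrtm3, so close to 0 that no direction is given for it, with Nlgn1 (−21.9%), Lrrtm4 (−20.9%) and Lrrtm2 (−15.9%) furthest below WT. Over all tested genes 46.6% lay below 0. Fold changes come from a model of genotype and 1 surrogate variable, which stands for variation other than genotype, so they need not equal the ratio of the mean CPM values. The median log2 fold change was −0.19 over the 9 members and 0.01 over all tested genes. None of the 9 passed the threshold after Benjamini-Hochberg (BH) adjustment in edgeR's quasi-likelihood test (2 of 9 at an unadjusted p under 0.05, against 10.5% of tested genes), which 0.0492% of tested genes passed, and the same count of 0 came from DESeq2 and from limma-voom. The study also used a lower threshold, an absolute log2 fold change above 0.25 with a p under 0.05, and a stricter one with p under 0.01. In both, p was taken here as unadjusted. Nlgn1 and Lrrtm2 passed both, lower in KO, so that 2 of 9 members were called where 3.51% of tested genes were lower at that lower threshold and 1.48% under the stricter one. These calls rest on the edgeR fit, in which 923 genes passed the lower threshold in either direction. The study reported fewer genes at its lower threshold in these cultures, and whether its list holds Nlgn1 or Lrrtm2 is not given here. No member was called higher in KO, as were 2.16% of tested genes. CPM values of the genotypes overlapped for each of the 9 members, and 0.86% of tested genes were lower in KO without overlap.

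**Figure D1:**
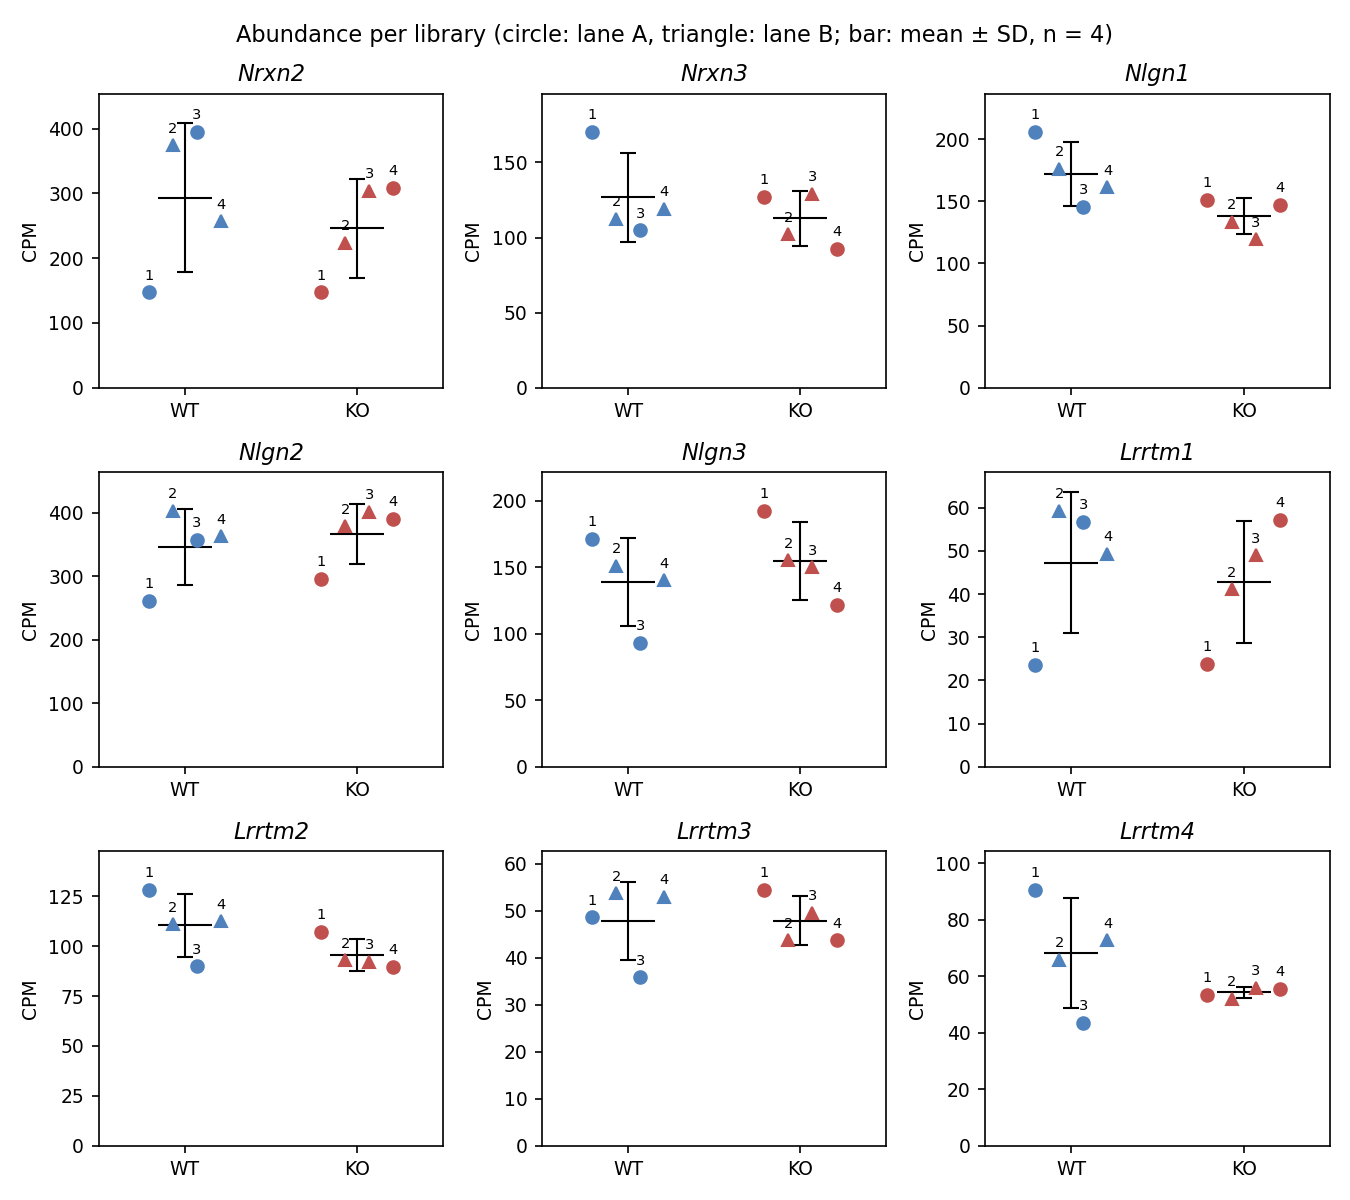
Abundance of the 9 members in each library in CPM, with WT on the left and KO on the right of each panel, circles for lane A, triangles for lane B, the replicate number above each point, and bars for the mean and SD (n = 4). The 4 KO libraries of Nlgn1 lie between 120 and 151 CPM and those of WT between 145 and 206 CPM, and WT3 is the lowest WT library for Nrxn3, Nlgn1, Nlgn3, Lrrtm2, Lrrtm3 and Lrrtm4.

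On the presynaptic side, Nrxn2 (ENSMUSG00000033768, GRCm38 chromosome 19, 6418756 to 6533217) had 147, 224, 304 and 309 CPM in KO1 to KO4 and 147, 375, 395 and 257 CPM in WT1 to WT4. The lowest values of both genotypes were those of KO1 and WT1, and the genotypes overlapped. Its mean was 246 ± 76.6 CPM in KO against 294 ± 115 CPM in WT (± SD, n = 4 per genotype), a log2 fold change of −0.23 (SE 0.113, with an adjusted p of 0.509 by edgeR). Neurexin 2 is one of the paralogous presynaptic receptors from which alternative promoters and splicing make many isoforms. The counts are per gene, so long and short isoforms and splice variants of neurexins were summed. Within lanes Nrxn2 gave −0.25 on lane A and −0.33 on lane B. Leaving out WT2 gave −0.14, and leaving out WT4 gave −0.30, which passed the lower study threshold.

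Nrxn3 (ENSMUSG00000066392, chromosome 12, 88722701 to 90334935), the other neurexin, had 127, 102, 129 and 92.5 CPM in KO and 170, 112, 105 and 119 CPM in WT. WT1 was the highest library, and the other WT libraries lay within the range of KO. The means were 113 ± 18.3 and 127 ± 29.7 CPM (± SD, n = 4 per genotype), and the log2 fold change was −0.19 (SE 0.105, with an adjusted p of 0.547 by edgeR). It was −0.36 on lane A, which holds WT1, and −0.07 on lane B. Without WT1 or KO1 it was −0.11 or −0.12, and without KO3 −0.32, which passed the lower study threshold. For both neurexins the difference between genotypes was within the spread between replicates.

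Among the neuroligins, Nlgn1 (ENSMUSG00000063887, chromosome 3, 25421808 to 26332866), whose product is the neuroligin of excitatory synapses, had 151, 133, 120 and 147 CPM in KO1 to KO4 and 206, 176, 145 and 161 CPM in WT1 to WT4. All KO libraries but KO1 and KO4 lay below every WT library, and these 2 exceeded only WT3. Its mean was 138 ± 14.4 CPM in KO against 172 ± 25.7 CPM in WT (± SD, n = 4 per genotype). The log2 fold change was −0.36 (SE 0.0939, with an adjusted p of 0.303 by edgeR), which ranked 191 by p among the 16272 tested genes. On lane B, where KO2 and KO3 had 133 and 120 CPM and WT2 and WT4 had 176 and 161 CPM, it was −0.48 with an adjusted p of 0.046 (edgeR). Nlgn1 was the only one of 9 members past the BH threshold on that lane alone, which 0.588% of genes passed. On lane A, where KO1 and KO4 had 151 and 147 CPM and WT1 and WT3 had 206 and 145 CPM, it was −0.26 with an adjusted p of 0.9999 (edgeR) and did not pass the lower study threshold. The 3 libraries with the strain label BK gave the same order, with KO4 at 147 CPM below WT2 at 176 CPM and WT4 at 161 CPM. KO4 was on lane A and WT2 and WT4 on lane B, so genotype and lane cannot be told apart within this label. Nlgn3, whose log2 fold change was above 0, had the same order there, at 122 CPM against 151 and 140 CPM.

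Nlgn2 (ENSMUSG00000051790, chromosome 11, 69823123 to 69837784), whose product is found at inhibitory synapses, had 296, 379, 402 and 390 CPM in KO and 261, 403, 357 and 363 CPM in WT. KO1 and WT1 were the lowest library of their genotypes, and the other libraries of both genotypes lay between 357 and 403 CPM. With means of 367 ± 47.8 and 346 ± 60.1 CPM (± SD, n = 4 per genotype), the log2 fold change was 0.06 (SE 0.0781, with an adjusted p of 0.817 by edgeR). The direction turned on lane B alone, at −0.04, against 0.14 on lane A, and the value was 0.03 without WT1, 0.13 without WT2 and 0.01 without WT3.

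Nlgn3 (ENSMUSG00000031302, chromosome X, 101299179 to 101321350), found at excitatory and inhibitory synapses, had 192, 155, 150 and 122 CPM in KO and 172, 151, 93.1 and 140 CPM in WT. KO1 was the highest library and WT3 the lowest, and the genotypes overlapped. Its means were 155 ± 29.1 and 139 ± 33.2 CPM (± SD, n = 4 per genotype), a log2 fold change of 0.10 (SE 0.123, with an adjusted p of 0.796 by edgeR). Without WT3 the value was −0.02, so the direction rested on that library, while it was 0.04 without WT1 and 0.23 without WT2, and on lane B alone it was −0.00. Nlgn3 lies on the X chromosome, and KO3 and WT4, the libraries with reads of the Y-linked gene Ddx3y (80.4 and 85.8 CPM, against 0.0839 CPM at most in the others), had 150 and 140 CPM of Nlgn3, inside the range of the other 6. In the GENCODE M1 annotation 749 exon bases of Nlgn3, 6.8% of its total, are shared with Med12 on the same strand. Reads that fall on both genes would go uncounted, but the study counted with another annotation, in which this overlap was not checked.

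Nlgn1 had a log2 fold change below 0, whereas that of Nlgn2 was near 0 and turned direction on lane B alone. The ratio of the CPM values of Nlgn1 to Nlgn2 was computed in each library. It was 0.511, 0.352, 0.298 and 0.377 in KO1 to KO4 and 0.788, 0.437, 0.407 and 0.444 in WT1 to WT4. KO1 exceeded WT2, WT3 and WT4, and the other KO libraries lay below all of WT, with means of 0.385 ± 0.0904 in KO and 0.519 ± 0.180 in WT (± SD, n = 4 per genotype). The ratio of Nlgn1 to Nlgn3 was 0.787, 0.859, 0.798 and 1.21 in KO and 1.20, 1.16, 1.56 and 1.1504 in WT, so only KO4 reached the WT range. Both ratios were formed after the values of their members were known and were not tested.

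Promoter windows are shown for Nlgn1, whose log2 fold change was furthest from 0 with all 8 libraries, and for Nlgn2, the neuroligin with the highest level. Lrrtm4 was further from 0 than Nlgn1 with 2 surrogate variables (−0.45 against −0.38) and without WT3 (−0.51 against −0.41). The windows run from 250 bases before to 50 after an annotated start, on GRCm38.p6 (RefSeq), and are written in transcript direction, with capitals marking motif matches. Nlgn1 has an upstream window on the minus strand at chr3:26331860-26332159 and a downstream one at chr3:26153937-26154236, and that of Nlgn2 is on the minus strand at chr11:69837735-69838034.
Nlgn1 upstream: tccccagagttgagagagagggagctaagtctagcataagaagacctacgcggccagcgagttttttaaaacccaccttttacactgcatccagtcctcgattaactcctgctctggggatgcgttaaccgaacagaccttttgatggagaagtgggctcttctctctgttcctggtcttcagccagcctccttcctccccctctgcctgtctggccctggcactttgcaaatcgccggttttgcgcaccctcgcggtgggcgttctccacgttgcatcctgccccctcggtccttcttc
Nlgn1 downstream: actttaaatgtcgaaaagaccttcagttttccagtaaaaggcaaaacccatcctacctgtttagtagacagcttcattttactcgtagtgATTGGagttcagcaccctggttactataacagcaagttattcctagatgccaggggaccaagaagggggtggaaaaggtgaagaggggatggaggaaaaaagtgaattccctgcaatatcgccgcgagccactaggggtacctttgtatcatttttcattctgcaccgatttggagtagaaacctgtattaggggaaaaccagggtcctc
Nlgn2: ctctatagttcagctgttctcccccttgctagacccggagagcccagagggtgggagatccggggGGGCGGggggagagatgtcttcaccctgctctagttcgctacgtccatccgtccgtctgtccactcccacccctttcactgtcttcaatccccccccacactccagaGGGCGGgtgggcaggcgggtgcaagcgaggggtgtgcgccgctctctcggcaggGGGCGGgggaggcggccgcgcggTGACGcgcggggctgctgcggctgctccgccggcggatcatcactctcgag

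The upstream Nlgn1 window is 55.7% G or C with 14 CpG dinucleotides and the downstream one 44.7% with 6, whereas the Nlgn2 window is 68.7% G or C with 26 CpG. Over all 32851 windows the medians were 52.7% and 7 CpG. Motifs searched on both strands were a TATA box (TATAAA, in 13.6% of all windows), a CCAAT box (CCAAT, 37.4%), an Sp1 core (GGGCGG, 35.7%), a CRE half-site (TGACG, 20.8%) and an E-box (CACGTG, 7.15%). Nlgn2 held 3 Sp1 cores and 1 CRE half-site, the downstream Nlgn1 window held 1 CCAAT box, and the upstream window held no match. Matches are descriptions of letters, and no binding was measured. Windows were found for 6 of 9 members, 10 in all, and were not found for Nrxn2, Nlgn3 and Lrrtm2.

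**Figure D2:**
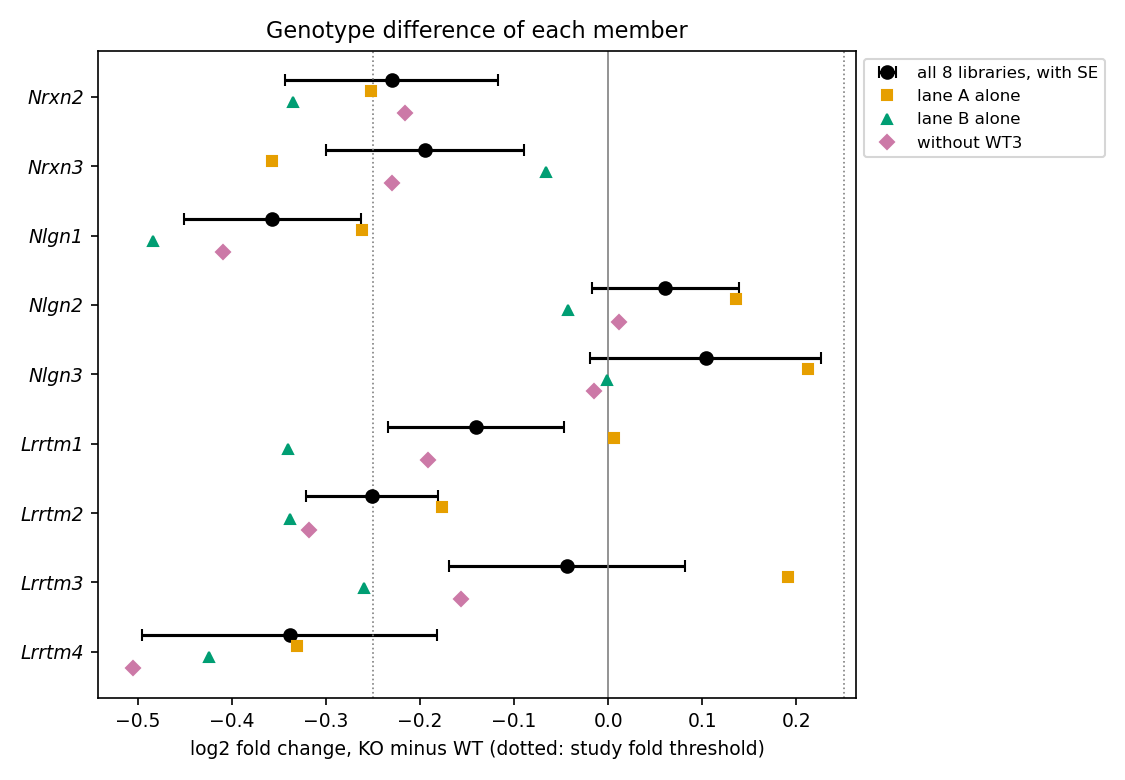
Log2 fold change of each member, KO minus WT, from all 8 libraries (black, bar for the SE), from lane A alone (squares), from lane B alone (triangles) and without WT3 (diamonds), with dotted lines at the fold threshold of the study. Both neurexins, Nlgn1, Lrrtm2 and Lrrtm4 lie below 0 in each of these fits, whereas Nlgn2, Nlgn3, Lrrtm1 and Lrrtm3 cross 0 in at least 1 of them.

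LRRTMs formed the second postsynaptic group, and each of the 4 had a log2 fold change below 0 in the fit of all 8 libraries, whereas Lrrtm1 and Lrrtm3 were above 0 on lane A alone, and Lrrtm3 also without WT2 or without WT4. Lrrtm2 (ENSMUSG00000071862, chromosome 18, 35209003 to 35215024), which encodes a neurexin ligand that stabilises AMPA receptors, had 107, 93.0, 92.1 and 89.7 CPM in KO1 to KO4 and 128, 111, 90.1 and 112 CPM in WT1 to WT4. WT3 lay among the KO libraries, and the other WT libraries lay above all of KO. The KO mean was 95.5 ± 7.97 CPM and that of WT 110 ± 15.7 CPM (± SD, n = 4 per genotype), and the log2 fold change was −0.251 (SE 0.0702, with an adjusted p of 0.335 by edgeR). Its size was just past the fold threshold of 0.25, and Lrrtm2 no longer passed the lower study threshold without KO1, KO2, WT2 or WT4, at −0.23, −0.24, −0.20 and −0.24. Lane A gave a value of −0.18 and lane B of −0.34. In the strain label BK, KO4 on lane A had 89.7 CPM, below WT2 at 111 CPM and WT4 at 112 CPM, both on lane B.

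Lrrtm4 (ENSMUSG00000052581, chromosome 6, 80018858 to 80810162), whose product also binds heparan sulphate proteoglycans, had 53.5, 52.0, 55.9 and 55.6 CPM in KO and 90.5, 65.8, 43.5 and 72.7 CPM in WT. The KO libraries lay close together, with WT3 below and the other 3 WT libraries above all of KO. The means were 54.3 ± 1.83 and 68.1 ± 19.5 CPM (± SD, n = 4 per genotype), with a log2 fold change of −0.34 (SE 0.157, with an adjusted p of 0.497 by edgeR). Lane A gave −0.33, lane B gave −0.42, and all libraries but KO1 gave −0.18. Lrrtm4 passed the lower study threshold without KO4, at −0.41, or without WT3.

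Lrrtm1 (ENSMUSG00000060780, chromosome 6, 77229210 to 77259915), a paralogue, had 23.9, 41.2, 49.0 and 57.2 CPM in KO and 23.7, 59.3, 56.8 and 49.4 CPM in WT. KO1 and WT1 were lowest by a wide margin, and the genotypes overlapped, at means of 42.8 ± 14.2 and 47.3 ± 16.3 CPM (± SD, n = 4 per genotype). Its log2 fold change was −0.14 (SE 0.0938, with an adjusted p of 0.617 by edgeR), with 0.01 on lane A and −0.34 on lane B. Leaving out WT2 brought it to −0.06. Lrrtm3 (ENSMUSG00000042846, chromosome 10, 63928497 to 64090255) had 54.4, 43.6, 49.6 and 43.7 CPM in KO and 48.5, 53.7, 35.8 and 52.9 CPM in WT. Here KO1 was the highest and WT3 the lowest library, at means of 47.8 ± 5.199 and 47.7 ± 8.28 CPM (± SD, n = 4 per genotype). The log2 fold change of Lrrtm3 was −0.04 (SE 0.126, with an adjusted p of 0.926 by edgeR), with 0.19 on lane A and −0.26 on lane B. Leaving out 1 library moved it between −0.16 without WT3 and 0.06 without WT2, and the KO mean CPM was slightly above that of WT, so no direction is given for Lrrtm3.

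WT3 was the lowest WT library for Nrxn3, Nlgn1, Nlgn3, Lrrtm2, Lrrtm3 and Lrrtm4, and it was singled out after these values were seen. Leaving it out removes the overlap of 3 of 9 members, Nlgn1, Lrrtm2 and Lrrtm4, a result of that choice (2.39% of tested genes were lower in KO without overlap then), and the values without it are a description. Leaving out any of the other libraries gave 0 members without overlap and 0 past the BH threshold. In the fit without WT3 2 of 9 members passed the BH threshold, which 0.694% of genes passed. Lrrtm2 was lower in KO with a log2 fold change of −0.32 (adjusted p of 0.0345 by edgeR) and Lrrtm4 with −0.51 (adjusted p of 0.0333 by edgeR), while Nlgn1 was at −0.41 (adjusted p of 0.0831 by edgeR). WT3 was the only library with its strain label, as was WT1 with its own. WT3 also had the lowest summed level of markers of progenitors and dividing cells, at 288 CPM. Its part in these values was not tested further.

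KO1 and WT1, the pair that stood apart from the other libraries, differed from them in some members and not in others. For Nrxn2, Nlgn2 and Lrrtm1 both lay below the other 6 libraries. Nrxn2 was at 147 CPM in each of the pair, against 224 to 395 CPM in the others, and Lrrtm1 at 23.9 and 23.7 CPM against 41.2 to 59.3 CPM. For Nlgn3 both lay above the other 6, at 192 and 172 CPM against 93.1 to 155 CPM. The pair was not separate for Nrxn3, Nlgn1, Lrrtm2, Lrrtm3 and Lrrtm4. Between the lowest and the highest library, Nrxn2 spanned 2.68-fold and Lrrtm1 2.51-fold, whereas Lrrtm2 spanned 1.43-fold and Lrrtm3 1.52-fold.

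**Figure D3:**
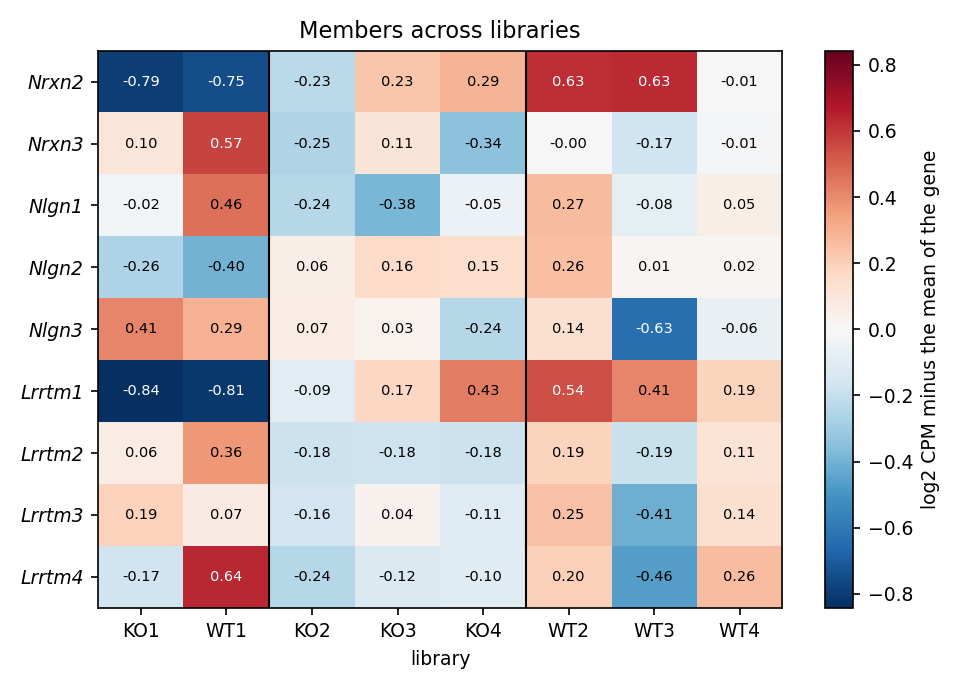
Log2 CPM of each member in each library minus its mean over the 8 libraries, with KO1 and WT1 first, then the other KO and the other WT libraries, and blue for values below the mean. Nrxn2 and Lrrtm1 are between −0.84 and −0.75 in KO1 and WT1, and WT3 is at −0.63 for Nlgn3, −0.46 for Lrrtm4 and −0.41 for Lrrtm3.

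Across the 6 libraries other than KO1 and WT1, the members that varied together most were Lrrtm3 with Lrrtm4 (Pearson r = 0.939), Nrxn2 with Lrrtm1 (0.907), Lrrtm2 with Lrrtm4 (0.869) and Nlgn1 with Lrrtm2 (0.815). WT3 was the lowest library for Lrrtm3 and for Lrrtm4. These are descriptions over 6 libraries that share genotype, lane and depth differences. The genes whose log2 CPM was most like that of a member over all 8 libraries were searched among 12775 tested genes with a mean of at least 1 CPM. For Nlgn1 they were Pcdhb21, Ncam2 and Slc9a7, of which the first is a clustered protocadherin and the second a neural cell adhesion molecule (r = 0.975, 0.982 and 0.970 over the 6 libraries). For Lrrtm2 they were Alg10b, Hspa13 and B3galnt1 (0.981, 0.988 and 0.956), and for Lrrtm4 they were Sema3c, which encodes a secreted semaphorin, Npr3 and Csgalnact1 (0.9995, 0.979 and 0.965). For Lrrtm3 they were St6galnac3, Helq and Golm1 (0.978, 0.970 and 0.955). For Lrrtm1 they were Bahcc1, Sema6b and Ttyh3, for Nrxn2 Celsr2 and Cacna1g, for Nrxn3 Lgi1, Gm17193 and Anks1b, for Nlgn2 Pbx4, Fbln1 and Wscd1, and for Nlgn3 Ppp1r3c, Ccnt2 and Tmem123. A search over so many genes selects high coefficients by construction.

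Levels of different members can be compared only per length, so CPM was divided by the length of the longest transcript of each gene in the GENCODE M1 annotation. Nlgn2 was at the top with 64.0 ± 9.24 CPM per kb (SD, n = 8), above Nrxn2 in 8 of 8 libraries. Nrxn2 followed with 40.5 ± 14.1 CPM per kb and Nlgn1 with 35.6 ± 6.10 CPM per kb, and Nrxn2 was the higher of the pair in 6 of 8 libraries. A gap followed, since Nlgn1 lay above Lrrtm2, at 18.2 ± 2.47 CPM per kb, with no overlap between their libraries. Below it came Nlgn3 at 17.2 ± 3.53, Lrrtm1 at 15.2 ± 4.86, Nrxn3 at 15.1 ± 3.03, Lrrtm4 at 13.8 ± 3.34 and Lrrtm3 at 12.3 ± 1.64 CPM per kb. Neighbours in this lower stretch overlapped, the upper one being higher in 4 to 6 of 8 libraries. The order depended on the length used. With the median transcript length Nrxn2 came first at 89.4 ± 31.1 CPM per kb, Nlgn2 next at 72.0 ± 10.4, and Nrxn3 came above the LRRTMs and Nlgn3 at 34.5 ± 6.91 CPM per kb.

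**Figure D4:**
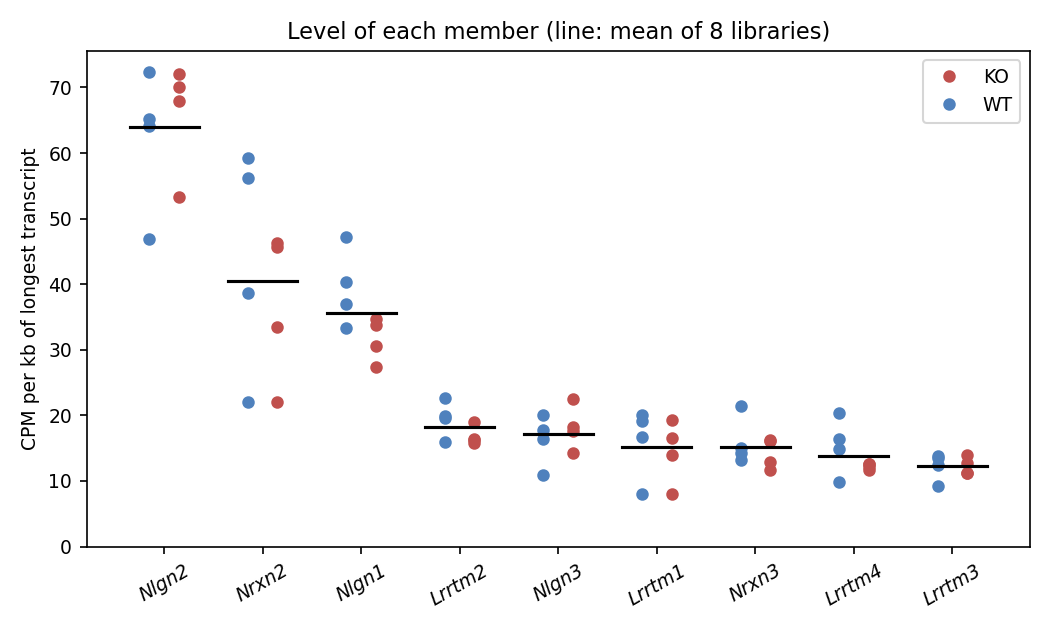
Level of each member in CPM per kb of its longest transcript in each library, WT in blue and KO in red, with lines at the means of the 8 libraries. Nlgn2, Nrxn2 and Nlgn1 have means from 35.6 to 64.0 CPM per kb and the other 6 members from 12.3 to 18.2 CPM per kb.

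Lrrtm1, Lrrtm2 and Lrrtm3 share a feature of position. In the GENCODE M1 annotation each lies inside a gene of an alpha-catenin, the proteins that tie cadherins to actin, on the opposite strand and with no shared exon bases, Lrrtm1 in Ctnna2, Lrrtm2 in Ctnna1 and Lrrtm3 in Ctnna3. With all 8 libraries the host genes passed neither the BH threshold nor the lower study threshold. Ctnna2 had a log2 fold change of 0.03 (SE 0.0629, with an adjusted p of 0.884 by edgeR) and was below 0 on lane B alone, at −0.08, and without KO4, at −0.01. Ctnna1 was at 0.16 (SE 0.111, with an adjusted p of 0.645 by edgeR), and at 0.06 without WT3, 0.10 without KO3 and 0.25 without WT4. Ctnna3 was at 0.72 (SE 0.364, with an adjusted p of 0.517 by edgeR) and at 0.45 without KO1, at 0.260 to 0.517 CPM in KO against 0.160 to 0.399 CPM in WT, far under the 35.8 to 54.4 CPM of Lrrtm3. It passed the lower study threshold in 3 alternatives, at 0.98 with 2 surrogate variables, 0.89 without KO2 and 1.02 without WT3, and the BH threshold in none. Lrrtm4 shares 25.1% of its exon bases with Gm4409 on the opposite strand, and whether the counting used strand is not stated, so reads of the pair may not be told apart.

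Other genes of the pathway were read from the same fit. Of 23 tested extracellular partners, among them cerebellins, neurexophilins, calsyntenins and the MDGA proteins that mask neuroligins, 3 were higher and 20 lower in KO, with a median log2 fold change of −0.10 and 0 past the lower study threshold. At an unadjusted p under 0.05 there were 2 of 23, both lower, against 10.5% of all tested genes, so this count was near the background. Clstn2, a calsyntenin, was at −0.21 (adjusted p of 0.369 by edgeR), and Mdga2 was at −0.23 (adjusted p of 0.413 by edgeR). Both were named after their values were seen. Of 18 intracellular partners, the scaffolds that bind the cytoplasmic tails, 6 were higher and 12 lower, with a median of −0.06 and 0 past the lower threshold. Dlg4, which encodes PSD-95, was at −0.10 (adjusted p of 0.677 by edgeR), Gphn, which encodes gephyrin of inhibitory synapses, at −0.06 (adjusted p of 0.855 by edgeR), and Cask, which binds neurexin tails, at 0.06 (adjusted p of 0.786 by edgeR), and all 3 were chosen for their role after their values were seen.

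The list with the lowest median was that of other adhesion molecules that organise synapses, which act beside the neurexin system and partly through presynaptic receptor phosphatases. Of its 25 members 3 were higher and 22 lower in KO, with a median log2 fold change of −0.23, 8 at an unadjusted p under 0.05, and 5 past the lower study threshold, all of them lower. Over all tested genes 5.78% were lower at that p and 3.51% at that threshold. The list was chosen with earlier results of these data known. With all 8 libraries, none of the 25 passed the BH threshold in edgeR after the filter on low counts, or in limma-voom. Without that filter Il1rapl1 passed it in edgeR (adjusted p of 0.0091), as did 49 of 31257 genes in all. DESeq2, in which 1.01% of tested genes passed, called 3 of the 25, Il1rapl1, Ntrk3 and Ptprd (adjusted p of 0.000197, 0.0059 and 0.0271). On lane B alone 1 of the 25 passed the BH threshold in edgeR, Ntng1, where 0.588% of genes passed. The summed CPM of the 25 was 5023, 5061, 5098 and 5129 in KO1 to KO4 and 5979, 6289, 5198 and 5627 in WT1 to WT4. This sum is weighted to the most abundant genes of the list, Cadm3, Cadm1, Ptprd and Ntrk3, and WT3 was the WT library nearest to KO. Taken singly, 2 of the 25 genes were lower in KO without overlap, Il1rapl1 and Il1rap, against 0.86% of tested genes. Il1rapl1, whose product binds the receptor phosphatase encoded by Ptprd, had 11.9, 11.2, 11.05 and 10.03 CPM in KO and 21.3, 14.2, 16.5 and 14.1 CPM in WT, and a log2 fold change of −0.61 (SE 0.103, with an adjusted p of 0.121 by edgeR). All 4 KO libraries lay below all WT libraries. Ntrk3, the TrkC receptor, was at −0.37 (SE 0.0824, with an adjusted p of 0.244 by edgeR), with 420 to 545 CPM in KO against 476 to 745 CPM in WT. Il1rap was at −0.36 (SE 0.0958, with an adjusted p of 0.316 by edgeR), Ptprd at −0.28 (SE 0.0738, with an adjusted p of 0.296 by edgeR) and Slitrk1 at −0.26 (SE 0.0646, with an adjusted p of 0.270 by edgeR). Slitrk1 no longer passed the lower study threshold without KO3 or WT2. Without WT3, a library singled out after its values were seen, 4 of the 25 passed the BH threshold, where 0.694% of genes passed. Among them were Il1rapl1 and Ntrk3 at −0.56 and −0.44 (adjusted p of 0.0345 each by edgeR), with Ntng1 and Cadm1. Over the 6 pathway lists together 5 of 88 tested genes passed the lower threshold, close to the 5.67% of all tested genes. There were 12 without KO1 (5.13% of all genes), 9 without KO4 (7.15%), 20 without WT3 (7.79%) and 10 without WT4 (8.4%). Il1rap, like Il1rapl1, was lower in KO without overlap, at 13.6 to 18.4 CPM against 18.8 to 21.3 CPM.

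Splicing regulators of neurexin transcripts held 10 tested genes, with 7 higher and 3 lower in KO and a median of 0.02. Nova2, a neuronal splicing factor, was the only one at an unadjusted p under 0.05, higher in KO at 0.15 (adjusted p of 0.435 by edgeR), and was named after its value was seen. Of 9 proteases that cleave neurexins and neuroligins, 3 were higher and 6 lower, with a median of −0.03. Adam10, which cleaves neuroligin 1, was at −0.19 (adjusted p of 0.578 by edgeR) and was chosen for its role after its value was seen. No gene of these lists passed the lower study threshold. Of the markers, Slc17a7, the vesicular glutamate transporter of excitatory neurons, was lower in KO at −0.32 (adjusted p of 0.382 by edgeR), whereas the 12 excitatory markers had a median of 0.00. The part of these marker levels in the values of Nlgn1 and the LRRTMs was not tested.

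**Figure D5:**
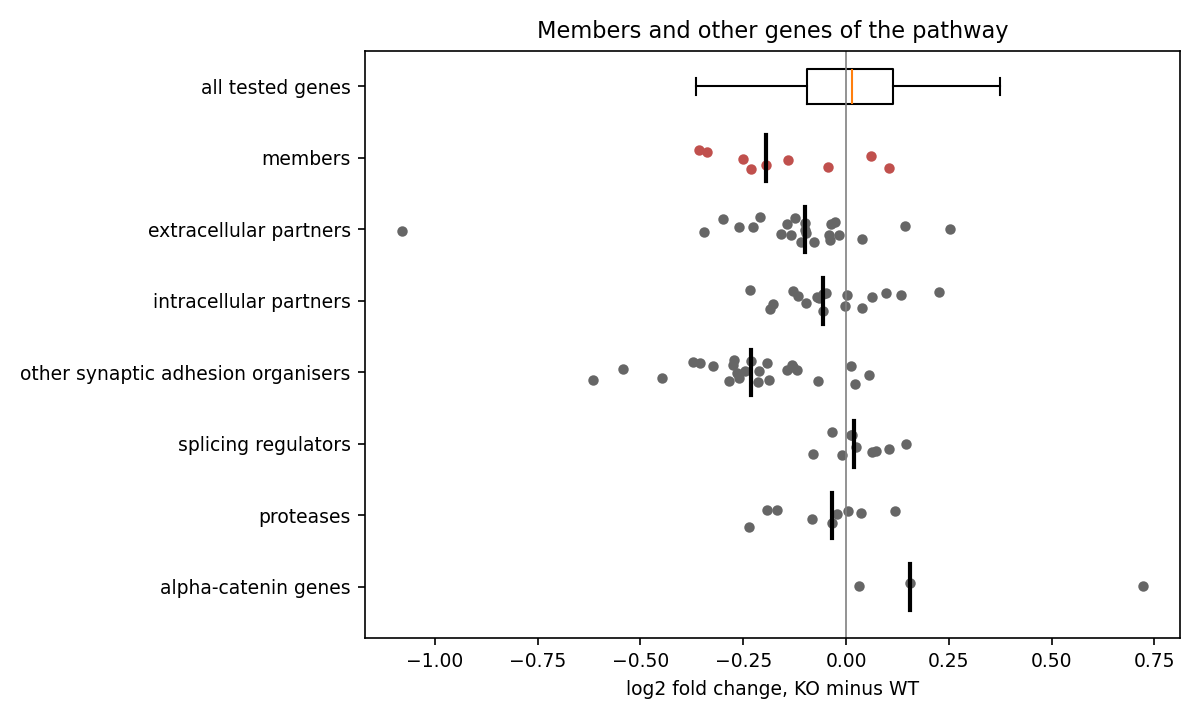
Log2 fold change, KO minus WT, of the members (red) and of the genes in 6 lists of the pathway (grey), each point a gene and each black line the median, with a box for all tested genes (quartiles, whiskers from percentile 5 to 95). The members have a median of −0.19, the other adhesion organisers of −0.23, and all tested genes of 0.01.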

How the data were processed

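Poly-A RNA of 8 libraries was measured, 4 KO and 4 WT. The deposited values are raw counts per Ensembl gene and library, made by the authors from trimmed reads cleared of ribosomal RNA and aligned to mm10. The submitters' processing notes list cutadapt 1.10, Bowtie2 2.2.8, STAR 2.5.3a and HTSeq 0.6.1p1. Only uniquely aligned reads were counted and reads on several genes were left out, which lowers the counts of overlapping genes. Read length and layout differ between labels and methods, and use of strand is not stated. The table gave symbols to 23260 identifiers and RefSeq positions on GRCm38.p6 to 20882.

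Counts were tested with edgeR 4.0.16 (R 4.3.3) after filterByExpr, with TMM scaling, 1 surrogate variable (sva 3.50.0), a robust quasi-likelihood F test and BH adjustment over all tested genes at 0.05. The lower and stricter study thresholds add an absolute log2 fold change above 0.25 to an unadjusted p under 0.05 or 0.01. The authors' own test, DESeq2 with hypothesis weighting, was run as an alternative (DESeq2 1.42.0) without the weighting. Log2 CPM used a prior count of 2, principal components the 500 most variable genes, and lengths and gene overlaps the GENCODE M1 annotation (NCBIM37), none of whose coordinates is printed. The members were taken by family and not by their values, and both they and the lists were chosen with earlier results of these data known. Named genes were the 9 members, Nuak1, up to 5 genes per pathway list past the lower threshold, the alpha-catenin genes and the 3 genes most like each member. Other genes named, from the lists or the markers, were chosen after their values were seen. Of the genes most like Nrxn2, 1 is not reported here. Magi2 had 2 identifiers, and that with more counts was used. No library duplicated another (lowest chi-square per degree of freedom 18.8). Labels do not say whether libraries came from separate cultures, so p-values measure the spread between these libraries. On simulated data the procedure recovered 53% of genes with a true absolute log2 fold change of 1 and 97% of those with 2, with 7 false calls. Changes as small as those of the members were not simulated. Alternatives covered surrogate variables, lane, replicate number, size factors, filters, DESeq2, limma-voom (limma 3.58.1), each lane alone, and leaving out libraries.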

Additional observations from a re-analysis of the deposited data

How the results depend on the processing

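Over 21 alternatives, Nrxn2, Nrxn3, Nlgn1, Lrrtm2 and Lrrtm4 stayed lower in KO, and Nlgn1 passed the lower study threshold in 20 of them, lane A alone being the exception, with log2 fold changes of −0.48 to −0.26 and adjusted p of 0.046 to 1. Lrrtm2 passed in 9 and Lrrtm4 in 5. Directions turned on lane A alone for Lrrtm1 (0.0066) and Lrrtm3 (0.19) and on lane B alone for Nlgn2 (−0.0431), Nlgn3 (−0.00177) and Ctnna2 (−0.078). Leaving out 1 library turned Nlgn3 without WT3, within a range of −0.0155 to 0.225 over the left-out libraries, Lrrtm3 without WT2 or WT4, within −0.157 to 0.0598, and Ctnna2 without KO4, within −0.00546 to 0.0615. The causes were not tested.

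Members past the lower study threshold were 2 with all libraries (5.67% of all genes). They were 1 without a surrogate variable (2.43% of all genes), with lane as a term (2.78%), with no filter other than 1 count (4.72%), with limma-voom (5.73%) and without KO1 and WT1 (3.35%), 3 with 2 surrogate variables (6.84%), with DESeq2 (5.51%) and without KO3 and WT4 (6.4%), 0 on lane A alone (0.591% of all genes), 5 on lane B alone (9.58% of all genes), and 1 to 3 (3.55% to 8.4% of all genes) when each library was left out in turn. Members past the BH threshold were 0, except for 1 on lane B alone and 0 to 2 over the left-out libraries. Members without overlap were 0 to 3 over the left-out libraries. Pathway genes past the lower threshold were 5, against 14 with 2 surrogate variables, 11 with DESeq2, 0 on lane A, 18 on lane B and 5 to 20 over the left-out libraries, beside the shares of all genes just given for each setting. All genes past the BH threshold were 8, against 4 without a surrogate variable, 17 with 2 of them, 4 with lane as a term, 49 with no filter, 165 with DESeq2, 0 on lane A (96 at an unadjusted p under 0.05), 99 on lane B, 3 without KO1 and WT1, 3 without KO3 and WT4, and 3 to 114 over the left-out libraries, the highest without WT3.

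Replicate numbers did not pair the libraries, since deviations of same-numbered libraries correlated at 0.800, 0.0122, 0.249 and 0.00225. With the replicate block 3 genes passed the BH threshold and 1 member the lower one (4.65% of all genes), Nlgn1 at −0.35. Each lane alone had 2 libraries per genotype, and was fitted without a surrogate variable.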

Other observations

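Of 4 ratios between paralogues, 3 were highest in KO1 and WT1. The ratio of Nrxn3 to Nrxn2 in CPM was 0.862, 0.456, 0.425 and 0.299 in KO1 to KO4 and 1.16, 0.300, 0.266 and 0.463 in WT1 to WT4, highest in KO1 and WT1. Lrrtm4 to Lrrtm1 was 2.24, 1.26, 1.14 and 0.972 in KO and 3.83, 1.11, 0.765 and 1.47 in WT, again highest in KO1 and WT1. The ratio of Nlgn1 to Nlgn2 was highest in WT1 and KO1 as well, at 0.788 and 0.511, whereas that of Nlgn1 to Nlgn3 was lowest in KO1, at 0.787, and 1.20 in WT1. None of these ratios was tested, and they were chosen after the values of the members were seen.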
